A study of Mus musculus with 2 samples.

Results

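Collagen genes were followed in a comparison of mouse heart RNA from wild-type mice and from mice with hypertrophic cardiomyopathy, in which the heart muscle thickens. Members were all entries of the deposited gene table whose symbol consists of Col, a type number, the letter a and a chain number, which gave 42 genes of 30385 entries. The study had 2 libraries. The WT library came from hearts of wild-type mice, and the MHC403 library from hearts of MHC403/+ mice, which carry on one allele a missense mutation, known from human patients, in a myosin heavy chain. Mice of both groups were of the 129/SvEv strain and 8 to 16 weeks old, and per the labels both were given CsA (cyclosporine A, which blocks calcineurin signalling) by subcutaneous injection for 2 weeks, with 2 doses of 15 mg/kg each day. Hearts were measured by 5′RNA-seq, in which polyA RNA is sequenced without fragmentation so that reads gather near transcript starts. Biological replicates had been pooled, so there was 1 library per genotype, no difference has a replicate check, and an effect of the drug in one genotype cannot be told apart from an effect of the mutation.

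Collagens are the main structural proteins of the extracellular matrix, built of 3 chains wound into a triple helix. Fibrillar collagens form the tensile fibres between heart muscle cells, basement membrane collagens form the sheet around muscle cells and capillaries, and beaded filament collagens link this sheet to the fibres. FACIT collagens sit on fibril surfaces, and transmembrane collagens are anchored in the cell membrane. In the heart, cardiac fibroblasts make most fibrillar collagen, endothelial cells and muscle cells contribute basement membrane collagen, and growth of the collagen network, called fibrosis, is a known feature of hypertrophic cardiomyopathy.

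Total reads were 5468677 for MHC403 and 5481123 for WT. Each ratio is the MHC403 value over the WT value, both scaled to these totals, and the range after a ratio is its exact (Clopper-Pearson) 95% interval, which covers counting error only and not variation between animals, pools or amplifications. An entry is called measured when its higher library has 50 reads or more. This held for 9507 entries, of which 2483 (26.1%) were at least 2-fold higher in MHC403 and 231 (2.43%) at least 2-fold lower, with a median ratio of 1.48 (log2 0.57). Mitochondrially encoded transcripts took 15.4% of MHC403 reads and 32.9% of WT reads. Median-of-ratios scaling lowered every log2 ratio by 0.55, which gave 1034 entries higher (10.9%) and 722 lower (7.59%). All 10 ventricular muscle markers checked against the heart label were measured, with 220151 summed reads in MHC403 and 362706 in WT. Positions of genes are on the mm9 build.

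Collagen transcripts were far more abundant in the MHC403 library. All 42 genes together held 35354 reads in MHC403 and 3870 in WT, a ratio of 9.16 (8.86 to 9.47). They made up 0.646% of the MHC403 library (exact 95% interval 0.640 to 0.653) and 0.0706% of the WT library (0.0684 to 0.0729). Of the 42 genes, 32 had more reads in MHC403, 4 had more in WT and 6 had equal counts, 4 of these at 0 in both libraries. Among the 38 collagens with any read, 84.2% had more reads in MHC403, compared with 71.9% of the 18331 such entries in the table. Of the 20 measured collagens, 20 were at least 2-fold higher and 0 lower, against 26.1% and 2.43% of all measured entries. Of these 20, 18 were at least 4-fold higher, where 5.8% of measured entries were, 12 at least 8-fold, where 1.79% were, and 5 at least 16-fold, where 0.663% were. The minimum of 50 reads favours genes that are high in one library, and 9 of the 20 reached it in MHC403 alone. With the minimum set in the WT library, a setting added after the values were seen, 11 of 11 collagens and 16.4% of 7630 entries were at least 2-fold higher. In bulk heart RNA, more cells of a type and more RNA per cell cannot be told apart.

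**Figure D1:**
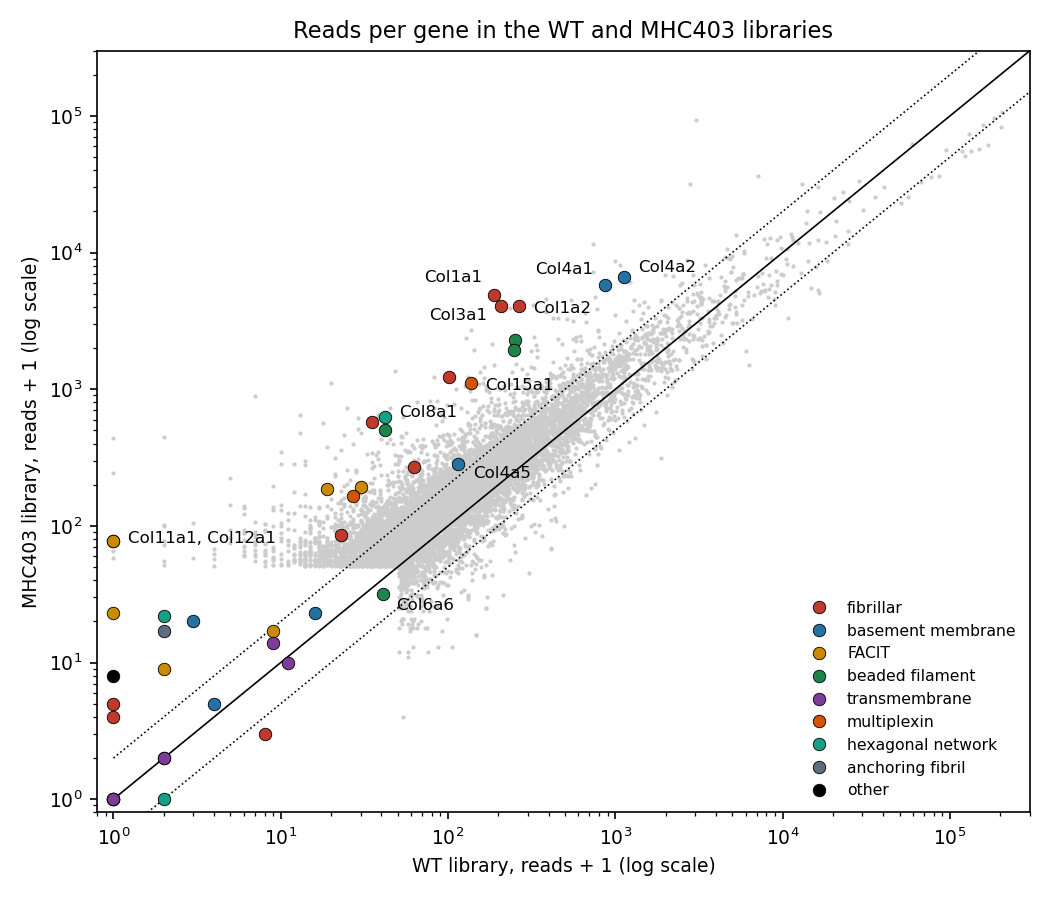
Reads per gene, plus 1, in the WT library (x, log scale) and the MHC403 library (y, log scale), with measured entries in grey and the 42 collagens coloured by class. The solid line marks equal reads and dotted lines 2-fold differences. Collagens with many reads lie above the upper dotted line, Col4a1 and Col4a2 among them, while Col6a6 lies below the solid line. The points of Col11a1 (fibrillar) and Col12a1 (FACIT), both with 0 WT reads, almost coincide, and the colour of Col12a1 is on top.

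Fibrillar collagens had the highest ratio of the 5 classic classes. Summed over 11 genes, they held 15292 reads in MHC403 and 885 in WT, a ratio of 17.3 (16.2 to 18.6), and without Col1a1 the ratio was 14.9 (13.8 to 16.1). Col1a1 (chromosome 11, 94797584 to 94813170), the main chain of type I collagen, the stiff fibre of scar and tendon, had 4914 reads in MHC403 and 188 in WT, a ratio of 26.2 (22.6 to 30.5). Col1a2 (chromosome 6, 4455697 to 4491543), which supplies the other chain of the same trimer, had 4034 and 264 reads, a ratio of 15.3 (13.5 to 17.4). Both chains were thus well above WT, but not by the same factor. Col1a1 had 1.22 reads for each Col1a2 read in MHC403 and 0.712 in WT, so its ratio was 1.71 times that of Col1a2 (exact conditional 95% interval 1.41 to 2.08), a value that does not depend on library scaling. Col3a1 (chromosome 1, 45368383 to 45406551), the single chain of the more elastic type III fibres that are laid down early in repair, had 4088 and 207 reads, a ratio of 19.8 (17.2 to 22.9). The ratio of Col1a1 was 1.32 times that of Col3a1 (1.08 to 1.63). Among the 9507 measured entries, counted from the highest ratio, Col1a1 ranked 26, Col3a1 43 and Col1a2 69.

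Type V collagen is built into type I fibrils and sets their diameter, and its chains did not move as a block. Col5a1 (chromosome 2, 27741945 to 27895030) had 1238 reads in MHC403 and 101 in WT, a ratio of 12.3 (10.02 to 15.2). Its partner Col5a2 (chromosome 1, 45431176 to 45560127) had 577 and 34 reads, a ratio of 17.0 (12.0 to 24.8). The counting interval of the Col5a1 ratio relative to Col5a2 included 1 (0.722, 0.469 to 1.09). Col5a3 (chromosome 9, 20574494 to 20619478), a chain of less common type V trimers, had 270 and 62 reads, a ratio of 4.36 (3.30 to 5.85), and the Col5a1 ratio was 2.81 times larger (1.96 to 4.01). Col5a2 lies next to Col3a1 on chromosome 1, tail to tail with 24624 bases between the genes, and the ratio of Col3a1 relative to Col5a2 was 1.16 (0.777 to 1.70).

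Several of the remaining fibrillar chains are best known from cartilage. Col11a1 (chromosome 3, 113733458 to 113923244), a type XI chain that can replace type V chains in fibrils, had 77 reads in MHC403 and 0 in WT. Against a floor of 3 counts in the WT library it was at least 25.7-fold higher, and the lower limit of the exact 95% interval used for the other ratios, which is wider, was 20.4. Col27a1 (chromosome 4, 62876446 to 62996024), a fibrillar chain of cartilage, had 85 and 22 reads, a ratio of 3.87 (2.40 to 6.50), the lowest of the measured fibrillar genes. Col11a2 had 2 reads in MHC403 and 7 in WT, Col24a1 had 4 and 0, and Col2a1, the main cartilage collagen, had 3 and 0. These counts were too low for a ratio. Of 10 cartilage and bone markers, Acan, Sp7, Ibsp, Matn3 and Hapln1 were at 0 in both libraries. The transcription factor Sox9 had 53 reads in MHC403 and 17 in WT, a ratio of 3.12 (1.78 to 5.76), and the phosphatase Alpl 168 and 126, a ratio of 1.34 (1.05 to 1.70). Summed over the list, the markers had 250 reads in MHC403 and 150 in WT. Their part in the Col11a1 reads was not tested.

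Of the 42 collagens, 34 were matched by symbol to a RefSeq promoter window on the GRCm38.p6 build, a later build than mm9. Col1a1, Col2a1, Col4a3, Col5a2, Col9a3, Col12a1, Col14a1 and Col22a1 were not matched. Upstream sequence is shown for Col3a1 and Col1a2, the 2 matched fibrillar genes with the most reads, to show where the motifs counted further on lie. The 250 bases before the RefSeq start of Col3a1 (chr1:45311288-45311537, plus strand) hold a TATAAA match, in capitals, that begins 117 bases before that start, far upstream of where a TATA box usually lies. The stretch of Col1a2 (chr6:4505368-4505492, plus strand) ends where the first GENCODE transcript of the gene begins and holds 2 GGGCGG matches, in capitals, that begin 205 and 188 bases before the RefSeq start. The stretches differ in length and in the start they end at, so they are not compared.
Col3a1: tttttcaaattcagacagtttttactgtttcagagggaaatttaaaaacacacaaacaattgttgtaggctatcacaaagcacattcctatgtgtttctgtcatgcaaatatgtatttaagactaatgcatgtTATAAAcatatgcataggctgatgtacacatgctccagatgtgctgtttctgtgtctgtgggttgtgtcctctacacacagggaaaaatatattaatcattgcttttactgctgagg
Col1a2: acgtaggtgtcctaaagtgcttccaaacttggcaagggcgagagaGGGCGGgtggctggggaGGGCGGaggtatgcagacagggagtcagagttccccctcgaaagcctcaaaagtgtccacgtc

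Basement membrane collagens had a smaller but still large excess. Summed over 6 type IV genes, they held 12833 reads in MHC403 and 2126 in WT, a ratio of 6.05 (5.78 to 6.34). Col4a1 and Col4a2 encode the chains of the type IV network found around nearly all vessels and muscle cells. Col4a1 (chromosome 8, 11198423 to 11312826, minus strand) had 5825 reads in MHC403 and 870 in WT, a ratio of 6.71 (6.25 to 7.21). Col4a2 (chromosome 8, 11312829 to 11449287, plus strand) had 6678 and 1122 reads, a ratio of 5.97 (5.60 to 6.36). The 2 genes are transcribed away from each other, from table starts that lie 3 bases apart. Their ratios differed little, with that of Col4a1 1.12 times that of Col4a2 (1.02 to 1.24). In RefSeq the starts are at 11312826 for Col4a1 and 11312805 for Col4a2 of chromosome 8 on GRCm38.p6, so the transcripts begin on opposite strands of the same 22 bases. Those 22 bases stand in capitals in the plus strand of chr8:11312801-11312830, shown because one short stretch starts both genes.
Col4a1 and Col4a2 starts: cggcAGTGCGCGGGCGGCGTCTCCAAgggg

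The deposited windows of Col4a1 and Col4a2 run only downstream of each start and do not overlap. Whether counting used the strand is not known, so reads at the few bases where both transcripts begin are uncertain for both genes.

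The other type IV chains form special networks, known best from kidney, lung and smooth muscle. Col4a5 (chromosome X, 137909962 to 138123778) had 285 reads in MHC403 and 114 in WT, a ratio of 2.51 (2.01 to 3.14), the lowest of the 20 measured collagens. The Col4a1 ratio was 2.68 times that of Col4a5 (2.11 to 3.38). Col4a5 was also the measured collagen that fell below 2-fold when median-of-ratios scaling, TMM scaling or totals without mitochondrial reads were used, with log2 ratios of 0.78, 0.78 and 0.99. Col4a6, its head-to-head neighbour with 1343 bases between the starts, had 19 and 2 reads, a ratio of 9.52 (2.30 to 84.3). The ratio of Col4a5 relative to Col4a6 was 0.264 (0.0293 to 1.12), an interval too wide to separate them. Col4a4 had 22 and 15 reads, a ratio of 1.47 (0.729 to 3.05), and its head-to-head neighbour Col4a3, whose start lies 72 bases away, had 4 and 3 reads. The chains of the main network were therefore well above WT, while a difference in Col4a3 and Col4a4 was not detectable at this depth. That the chains differ was tested only for the pairs with an interval given here.

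Beaded filament collagens, the type VI chains that form microfilaments at the border of muscle cells, had 4765 reads in MHC403 and 577 in WT over 5 genes, a ratio of 8.28 (7.59 to 9.04). The classic type VI trimer takes 1 chain each from Col6a1, Col6a2 and Col6a3, and these were the 3 measured genes. Col6a1 (chromosome 10, 76171537 to 76188789) had 1941 reads in MHC403 and 247 in WT, a ratio of 7.88 (6.90 to 9.03). Col6a2 (chromosome 10, 76058501 to 76086149), on the same strand 85387 bases away, had 2287 and 249 reads, a ratio of 9.21 (8.07 to 10.5). The ratio of Col6a1 relative to Col6a2 was 0.856 (0.707 to 1.04), an interval that includes 1. Col6a3 (chromosome 1, 92672492 to 92740505) had 506 and 41 reads, a ratio of 12.4 (8.99 to 17.4), which was 1.57 times that of Col6a1 (1.11 to 2.27) and 1.34 times that of Col6a2 (0.948 to 1.95). Col6a6 (chromosome 9, 105591747 to 105730415), a later-described chain related to that of Col6a3, went the other way in its counts, with 31 reads in MHC403 and 40 in WT, a ratio of 0.777 (0.470 to 1.27). Its own interval included 1, but the Col6a1 ratio was 10.1 times that of Col6a6 (6.05 to 17.1). Col6a4 had 0 reads in both libraries.

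FACIT collagens were few in reads and varied widely among themselves. Summed over 9 genes, they held 502 reads in MHC403 and 57 in WT, a ratio of 8.83 (6.70 to 11.8). Col12a1 (chromosome 9, 79446798 to 79566485), which bridges type I fibrils in tissues under tension, had 76 reads in MHC403 and 0 in WT, at least 25.4-fold higher by the same floor, where the exact interval begins at 20.2. Col16a1 (chromosome 4, 129725084 to 129776521), a minor component of fibrils and microfibrils, had 186 and 18 reads, a ratio of 10.4 (6.37 to 17.9). Col14a1 (chromosome 15, 55139305 to 55352358), a regulator of fibril assembly, had 193 and 29 reads, a ratio of 6.67 (4.50 to 10.2). The interval of the Col14a1 ratio relative to Col16a1 included 1 (0.645, 0.325 to 1.25). Below the minimum, Col9a2, a type IX chain known from cartilage, had 22 reads in MHC403 and 0 in WT, at least 7.35-fold higher by that floor, where the exact interval begins at 5.49. Col20a1 had 16 and 8 reads, a ratio of 2.00 (0.809 to 5.41). Col22a1 had 8 and 1, Col9a3 had 1 and 1, and Col19a1 and Col9a1 had 0 in both.

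Collagens outside the 5 classic classes were also higher. The multiplexins Col15a1 and Col18a1 are basement membrane proteins whose cleaved ends, such as endostatin from type XVIII, restrain vessel growth, and together they had 1268 reads in MHC403 and 162 in WT, a ratio of 7.84 (6.66 to 9.30). Col15a1 (chromosome 4, 47220884 to 47326037) had 1104 and 136 reads, a ratio of 8.14 (6.80 to 9.80). Col18a1 (chromosome 10, 76514924 to 76629275) had 164 and 26 reads, a ratio of 6.32 (4.16 to 9.97). Their ratios did not separate at this depth, with that of Col15a1 1.29 times that of Col18a1 (0.786 to 2.04). Type VIII collagen forms hexagonal networks below the endothelium and is made during vessel repair. Its chain Col8a1 (chromosome 16, 57624369 to 57754850) had 627 reads in MHC403 and 41 in WT, a ratio of 15.3 (11.2 to 21.6). The windows of Col8a1 overlap those of AK051864, an unclassified transcript, so some of its reads may be listed under both. The second chain, Col8a2, had 21 and 1 reads, a ratio of 21.0 (3.39 to 870), and Col7a1, which builds the anchoring fibrils of skin, had 16 and 1, a ratio of 16.0 (2.49 to 672). Col10a1 had 0 and 1 reads, and Col28a1 had 7 and 0.

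Transmembrane collagens formed the class without a detectable excess. Its 4 genes held 23 reads in MHC403 and 19 in WT, a ratio of 1.21 (0.632 to 2.36), and with any of the 3 other scalings tried the ratio was below 1 (0.830 to 0.963). None of the 4 reached the minimum. Col13a1, found at cell adhesion sites, had 13 and 8 reads, a ratio of 1.63 (0.626 to 4.53). Col23a1 had 9 and 10, a ratio of 0.902 (0.324 to 2.47), Col17a1, of skin hemidesmosomes, had 1 and 1, and Col25a1 had 0 in both. The class ratio was lower than that of the basement membrane class by a factor of 4.99 (2.56 to 9.59). A class total of 42 reads gives low precision.

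**Figure D2:**
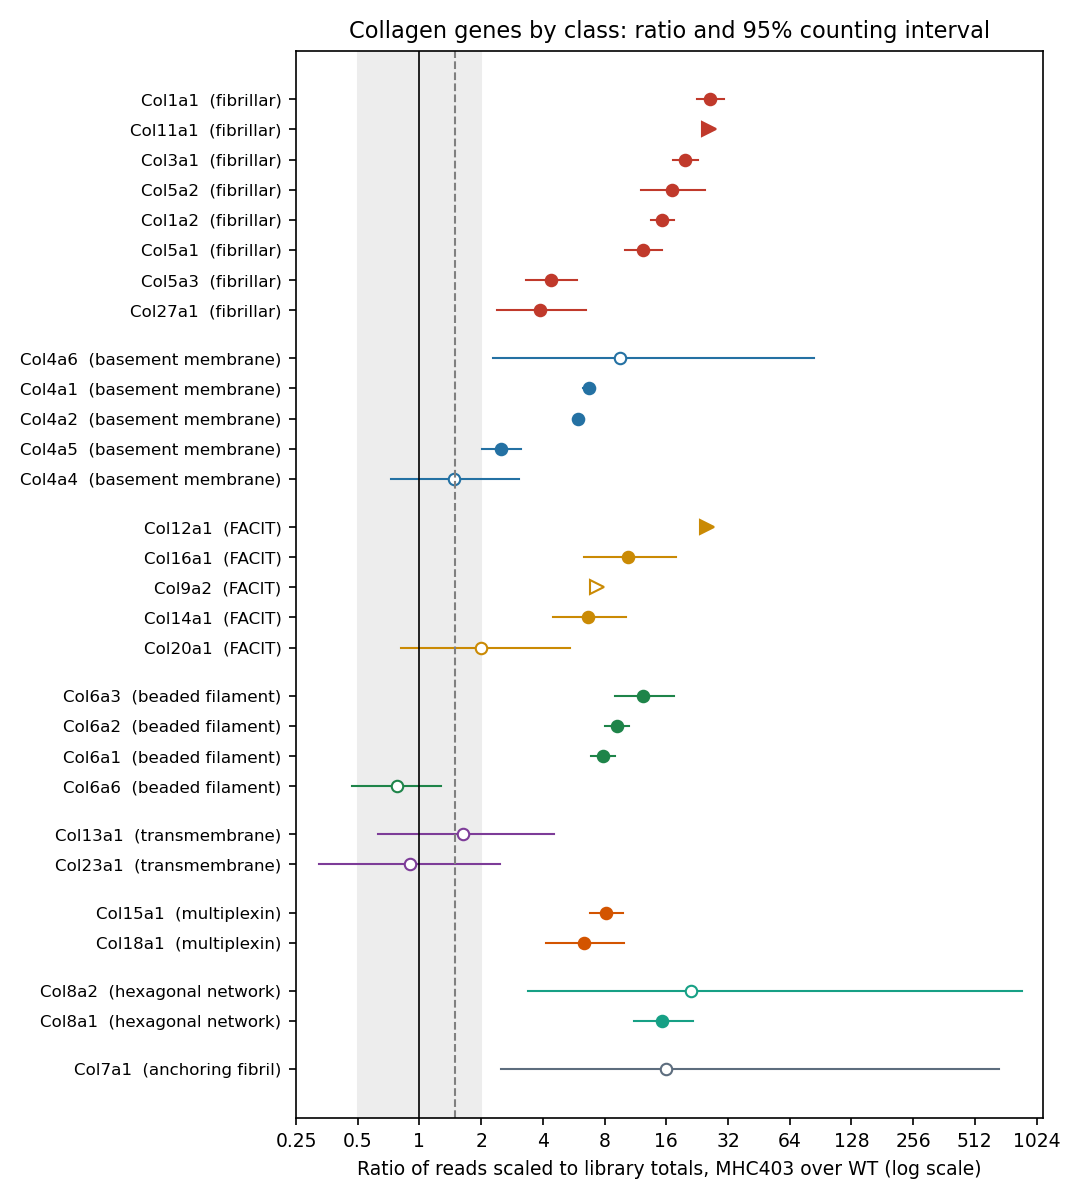
Ratio of scaled reads, MHC403 over WT (x, log scale), for the 29 collagens that reach 10 reads in either library, grouped by class. Circles are ratios with their exact 95% counting interval, triangles are lower bounds for genes with 0 WT reads, open symbols are genes under 50 reads, the grey band marks 2-fold, and the dashed line is the median of 1.48 over all measured entries. The filled symbols, from Col4a5 at 2.51 to Col1a1 at 26.2, lie right of the band.

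The make-up of collagen reads therefore differed between the libraries. Fibrillar genes supplied 22.9% of collagen reads in WT (exact 95% interval 21.6 to 24.2) and 43.3% in MHC403 (42.7 to 43.8). Basement membrane genes supplied 54.9% in WT (53.4 to 56.5) and 36.3% in MHC403 (35.8 to 36.8). These shares do not depend on library scaling. The 3 main interstitial genes Col1a1, Col1a2 and Col3a1 went from 17.0% of collagen reads in WT to 36.9% in MHC403, while Col4a1 and Col4a2 together went from 51.5% to 35.4%. Beaded filament genes took 14.9% in WT (13.8 to 16.1) and 13.5% in MHC403 (13.1 to 13.8), and FACIT genes 1.47% (1.12 to 1.90) and 1.42% (1.30 to 1.55). The fibrillar class ratio was 2.86 times that of the basement membrane class (2.64 to 3.11), 2.09 times that of the beaded filament class (1.87 to 2.34) and 1.96 times that of the FACIT class (1.45 to 2.61). The beaded filament ratio was 1.37 times that of the basement membrane class (1.24 to 1.51). FACIT and beaded filament genes did not separate (1.07, 0.798 to 1.45), nor did the multiplexins and the beaded filament genes (0.948, 0.786 to 1.15). In order of summed ratio, the 6 classes with a measured gene were fibrillar, hexagonal network (15.1, 11.1 to 21.1), FACIT, beaded filament, multiplexin and basement membrane, and the first pair did not separate either (0.872, 0.635 to 1.23). Without Col1a1 and Col3a1, fibrillar genes still took a larger share in MHC403 (23.9%) than in WT (14.1%).

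**Figure D3:**
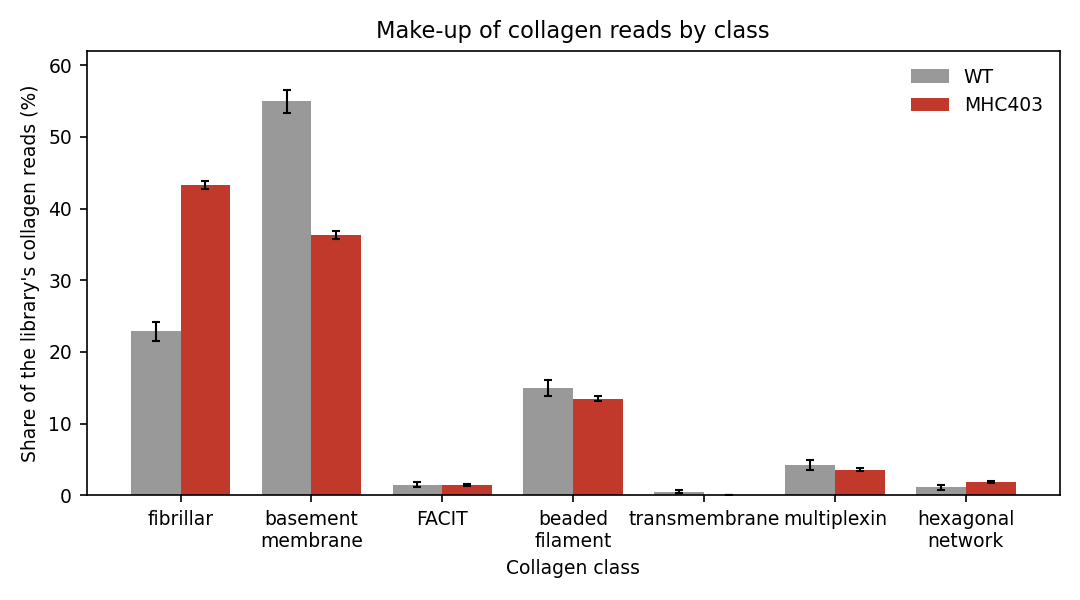
Share of each library's collagen reads (y, %) taken by 7 collagen classes (x), in WT (grey) and MHC403 (red), with exact 95% counting intervals as error bars. Fibrillar genes go from 22.9% in WT to 43.3% in MHC403 and basement membrane genes from 54.9% to 36.3%.

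The authors' deposited table also gives each gene a start-site score, a whole number with a formula that the sources used here do not give. In the authors' deposited table the score was above 0 for 10 of the 18 collagens whose 2 counts both reach 20 and for 34.7% of the 10483 such entries. The highest collagen scores in the authors' deposited table were 70 for Col8a1, 58 for Col1a2, 36 for Col14a1 and 29 for Col4a5. A score of at least 70 was given to 38 of the 10483 entries in the authors' deposited table, and one of at least 58 to 66 entries. Col1a2 and Col14a1 have 2 annotated starts each, and Col8a1 and Col4a5 have 1 start but 2 counting windows. Col1a1 and Col3a1 scored 4 each in the authors' deposited table, and Col4a2 and Col6a1 scored 0. The table holds 1 read count per gene, so shares of reads per start are not analysed here.

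Short motifs were searched on both strands of the RefSeq windows, which run from 250 bases before to 50 after each start. The GC box GGGCGG was in 21 of 34 collagen windows (61.8%) and in 35.7% of all 32851 windows. The TATA box TATAAA was in 5 of 34 (14.7%) and 13.6% of all windows, and the CCAAT box CCAAT in 12 of 34 (35.3%) and 37.4%. The AP-1 site TGANTCA was in 1 of 34, that of Col6a1, and in 7.81% of all windows, and the palindromic SMAD box GTCTAGAC in 0 of 34 and 0.213%. The 5 genes with TATAAA were Col3a1, Col10a1, Col11a2, Col13a1 and Col17a1, of which Col3a1 was measured. The match of Col10a1 began 32 bases before the start, and those of the other 4 genes lay farther upstream, at 91 to 237 bases. The windows of Col4a1 and Col4a2 both hold GGGCGG and CCAAT. These windows overlap at their starts, and the only GGGCGG match of Col4a1, 9 bases after its start, is shared. It lies 7 bases after the Col4a2 start and was counted in both windows. These matches describe letters in a window and were not linked to the ratios.

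Other genes that make, modify, bind or remove collagen were higher too, by smaller factors on the whole. Across the 5 lists of such genes, 47 were measured, and 32 of them passed 2-fold upwards and 0 downwards, against 26.1% and 2.43% of all measured entries. The lists were chosen with earlier results of these data known, and the minimum of reads favours genes that are high in one library. Several higher genes, Fkbp10, Creb3l1, Adamts2, Postn, Thbs1 and Timp1 among them, reached it in MHC403 alone. Others, such as Sparc, Plod3, Loxl2 and Bgn, reached it in both. A minimum set in the WT library was not tried for these lists. Of 16 measured genes of collagen synthesis and folding, 10 were higher and 6 within 2-fold, with a median log2 ratio of 1.41. With median-of-ratios scaling 5 were higher, against 10.9% of all measured entries. Sparc, a collagen-binding matrix protein, had 5830 reads in MHC403 and 887 in WT, a ratio of 6.59 (6.14 to 7.08). The collagen folding factor Fkbp10 had 146 and 27 reads, a ratio of 5.42 (3.58 to 8.50). Creb3l1, a transcription factor of collagen-secreting cells, had 83 and 17, a ratio of 4.89 (2.88 to 8.80), and the lysyl hydroxylase Plod3 had 327 and 107, a ratio of 3.06 (2.46 to 3.85). The 6 genes within 2-fold were the hydroxylase genes P4ha1 (1.89), Plod1 (1.72), Plod2 (1.49) and P4ha2 (1.32), with Mia3 (1.54) and Glt25d1 (1.31). The hydroxylase genes Leprel2 (2.76) and Lepre1 (2.67) were higher. All of these were named after their values were seen.

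Genes that trim and cross-link procollagen were closer to the collagens than those of synthesis and folding were. Of 8 measured, 7 were at least 2-fold higher, against 26.1% of all measured entries, and 1 was within 2-fold. With median-of-ratios scaling 6 were higher, against 10.9%. Their median log2 ratio was 2.72, beside 3.29 for the 20 measured collagens and 0.57 for all measured entries. Adamts2, which removes the amino-terminal propeptide, had 358 reads in MHC403 and 22 in WT, a ratio of 16.3 (10.6 to 26.4). Of the lysyl oxidases, which cross-link the finished fibre, Loxl2, Lox and Loxl1 followed. Loxl2 had 821 and 77 reads (10.7, 8.45 to 13.7), Lox 256 and 27 (9.50, 6.38 to 14.7) and Loxl1 773 and 107 (7.24, 5.91 to 8.95). Among the higher genes of the list, Adamts2 and Lox reached the minimum of reads in MHC403 alone. The lysyl oxidase Loxl3 was the 1 gene within 2-fold. It had 57 reads in MHC403 and 38 in WT, and the interval of its ratio included 1 (0.980 to 2.33). Loxl3 was named after its values were seen.

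Among 12 measured genes of fibril-associated proteins, 8 were at least 2-fold higher, against 26.1% of all measured entries, and 4 within 2-fold. Their median log2 ratio was 2.80. Periostin, Postn, which promotes cross-linking, had 1103 reads in MHC403 and 19 in WT, a ratio of 58.2 (37.1 to 97.0). Thrombospondin 1, Thbs1, had 648 and 12, a ratio of 54.1 (30.8 to 105), fibronectin, Fn1, had 1923 and 141 (13.7, 11.5 to 16.3), with windows that overlap those of AK049041 and Gm15456, and the proteoglycan biglycan, Bgn, had 4527 and 542 (8.37, 7.66 to 9.17). Of 4 measured collagen receptors 2 were higher, a list too short to set against the 26.1% of all measured entries. The uptake receptor Mrc2 had 322 and 51 reads, a ratio of 6.33 (4.70 to 8.68), and the integrin subunit Itgb1 4135 and 1375 (3.01, 2.84 to 3.21). The discoidin receptors Ddr1 (1.80, 1.46 to 2.21) and Ddr2 (1.18, 0.874 to 1.58) stayed within 2-fold.

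In the list of collagen breakdown, 5 of 7 measured genes were higher, against 26.1% of all measured entries, and 2 within 2-fold. With median-of-ratios or TMM scaling 4 were higher, against 10.9% in each. The median log2 ratio of the list was 2.90. Timp1, an inhibitor of matrix metalloproteinases, had 886 reads in MHC403 and 6 in WT, a ratio of 148 (67.7 to 404). The membrane-bound protease Mmp14 had 396 and 46 (8.63, 6.35 to 12.0), the gelatinase Mmp2 1205 and 162 (7.46, 6.32 to 8.84) and the collagen-degrading cathepsin Ctsk 138 and 18 (7.68, 4.69 to 13.3). The other inhibitors of the list varied in direction. Timp2 was at 2.67 (2.40 to 2.97) and Timp3 at 1.48 (1.38 to 1.59), while Timp4 was lower, with 107 and 172 reads (0.624, 0.485 to 0.798), and passed 2-fold downwards with median-of-ratios scaling (0.427), TMM scaling (0.427) and totals without mitochondrially encoded entries (0.495). These 3 were named after their values were seen.

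**Figure D4:**
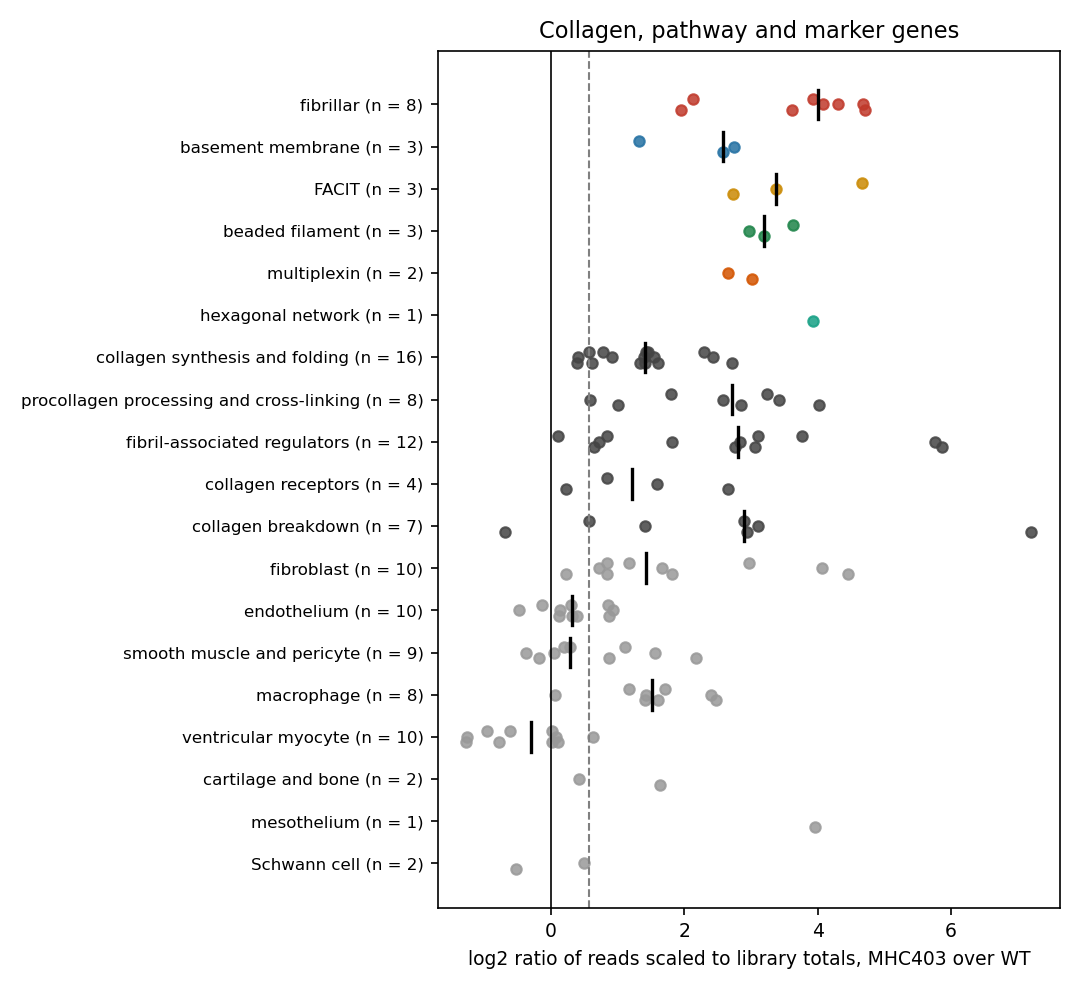
log2 ratio of scaled reads, MHC403 over WT (x), for each measured gene of the collagen classes (coloured), of other collagen-pathway lists (dark grey) and of cell type marker lists (light grey), with the number of genes. Black bars are medians of lists with 3 or more genes, genes with 0 WT reads are plotted at their lower bound, and the dashed line is the median of 0.57 over all measured entries. All 20 collagens lie right of the dashed line, with the fibrillar median at 4.01, the fibroblast marker median at 1.42 and the endothelial at 0.31.

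Markers of cell types that make collagen moved by different amounts. The 10 fibroblast markers had 8735 summed reads in MHC403 and 2701 in WT, a ratio of 3.24 (3.10 to 3.39), and none was at 0 reads. At least 2-fold higher were 6 of 10, against 26.1% of all measured entries, and 5 with median-of-ratios scaling, against 10.9%. Tcf21, Dcn, Dpt and Ddr2 stayed within 2-fold. Of the higher genes, Mfap5, S100a4 and Thy1 reached the minimum of reads in MHC403 alone, a filter that favours genes high in one library. Vim, Lum and Pdgfra reached it in both libraries, as did Dcn, Dpt and Ddr2. The highest were the microfibril gene Mfap5 (21.9, 15.0 to 33.3), S100a4 (16.7, 12.3 to 23.2), vimentin, Vim (7.86, 7.10 to 8.71), and the proteoglycan lumican, Lum (3.51, 2.55 to 4.91). Dcn, Ddr2 and Lum are also in the pathway lists. S100a4 and Vim are expressed by other cell types too, macrophages among them, and the receptor Pdgfra, more particular to fibroblasts, had a ratio of 2.25 (1.81 to 2.80), a gene named after its values were seen. Relative to the fibroblast marker sum, the fibrillar class was 5.34 times higher in MHC403 than in WT (4.93 to 5.80), the beaded filament class 2.55 times (2.32 to 2.82) and the basement membrane class 1.87 times (1.75 to 1.99). Dcn, with 2976 reads in MHC403 and 1666 in WT, and Vim, with 3341 and 426, held most reads of this sum. Ratios of single markers ran from 1.18 (Ddr2) to 21.9 (Mfap5), so these factors depend on the markers summed.

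Endothelial markers were close to WT and varied in direction. The 10 endothelial markers had 3765 reads in MHC403 and 2939 in WT, a ratio of 1.28 (1.22 to 1.35), and none was at 0 reads. At least 2-fold higher were 0 of 10, where 26.1% of all measured entries were. Von Willebrand factor, Vwf, had the largest ratio, 1.91 (1.55 to 2.36), followed by the adhesion molecules Pecam1 (1.84, 1.59 to 2.13) and Esam (1.81, 1.52 to 2.16), while the junction protein Cdh5 was at 1.31 (1.18 to 1.44). The receptor Kdr went the other way, with 189 and 265 reads (0.715, 0.590 to 0.865), and the intervals of Tek (0.915, 0.720 to 1.16), Flt1 (1.10, 0.944 to 1.28) and Tie1 (1.09, 0.958 to 1.24) included 1. These 4 were named after their values were seen. The direction of the endothelial sum depended on scaling, at 0.878 with median-of-ratios scaling, 0.880 with TMM scaling and 1.02 without mitochondrially encoded entries. The basement membrane class was 4.71 times higher relative to this sum (4.41 to 5.04), a value that does not depend on scaling.

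The 10 smooth muscle and pericyte markers had 3438 and 2378 reads, a ratio of 1.45 (1.37 to 1.53), which fell to 0.991 with median-of-ratios scaling and 0.993 with TMM scaling. At least 2-fold higher were 3 of 9 measured genes, near the 26.1% of all measured entries. They were the pericyte proteoglycan Cspg4 (4.51, 3.50 to 5.88) and the contractile genes Acta2 (2.94, 2.54 to 3.43) and Tagln (2.15, 1.77 to 2.62), while Pdgfrb was within 2-fold (1.84, 1.58 to 2.13). The pericyte gene Rgs5 was on the other side of 1 (0.771, 0.686 to 0.865), and Kcnj8 (0.882, 0.706 to 1.10) and the smooth muscle myosin Myh11 (1.03, 0.827 to 1.29) had intervals that include 1, all 3 named after their values were seen. The 9 macrophage markers had 2575 and 864 reads, a ratio of 2.99 (2.76 to 3.23). Of 8 measured, 7 were at least 2-fold higher, against 26.1% of all measured entries, and 4 with median-of-ratios scaling, against 10.9%. They were led by Cd68 (5.55, 4.02 to 7.80), Cd14 (5.27, 3.57 to 8.01), C1qa (3.29, 2.86 to 3.81) and Lyz2 (3.06, 2.63 to 3.57), whose windows overlap those of Lyz1. The exception was Cd163 (1.04, 0.749 to 1.45). Among the higher macrophage genes, Cd68, Cd14, Mrc1 and Emr1 reached the minimum of reads in MHC403 alone. C1qa, Lyz2 and Csf1r reached it in both libraries, as did Cd163.

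Ventricular muscle markers were lower as a sum, by a factor of 1.64 (1.64 to 1.65), but evenly split by gene, 5 above and 5 below a ratio of 1. Myh6 (lower by a factor of 2.40, 2.38 to 2.43) and Myl2 (2.39, 2.36 to 2.42), which hold most of the WT reads of the list, were the 2 of 10 genes at least 2-fold lower, where 2.43% of all measured entries were. Pln (1.95, 1.88 to 2.02), Tnni3 (1.72, 1.68 to 1.75) and Myl3 (1.53) were lower within 2-fold. Actn2 was higher, with a ratio of 1.56 from 7860 and 5061 reads, and Mybpc3 (1.08, 1.05 to 1.10), Tnnt2 (1.05, 1.04 to 1.06), Ryr2 (1.01, 0.974 to 1.05) and Ttn (1.01, 0.984 to 1.04) were near 1. Relative to the median of all measured entries only Actn2 of the 10 was higher, and with median-of-ratios scaling 1 gene was above a ratio of 1 and 9 were below it. The 9 mesothelial markers had 223 and 65 reads, with Krt18 (15.6, 6.42 to 49.5) the 1 measured and Muc16 at 0 in both libraries. The 8 Schwann cell markers had 263 and 262, with Egfl8 lower by a factor of 1.44 (1.12 to 1.87) and Cnp at 1.41 (0.991 to 2.03). The part of a change in cell numbers in the collagen ratios was not tested.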

How the data were processed

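The authors deposited 1 table of 30385 entries with mm9 positions, annotated starts and counting windows, and, per the file headers, whole-number read counts of each entry in both libraries, not normalized. The authors' normalized reads were RPM on recomputation (largest difference 4.94e-06). The authors' deposited fold, the ratio of these values, and the authors' deposited p-value were not used. The authors' deposited start-site score has no stated formula. The submitters' processing notes name TopHat 1.0.14 and mm9. Not given in the sources used here are the counting program, its use of strand and the number of animals in a pool.

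Collagens were assigned by symbol to 9 structural classes. Reads were scaled to library totals, 5468677 in MHC403 and 5481123 in WT. Ratios have an exact (Clopper-Pearson) 95% interval conditional on the summed reads, computed with scipy 1.17.1. For 50 reads against 50 it spans 0.662 to 1.51. A single library per genotype leaves no spread to test against, so no test or p-value is given. Pairs of genes or classes were compared by the odds ratio of reads with its exact conditional interval, for 8 pairs planned and 28 added after the values were seen, without adjustment for their number. For a gene with 0 reads in a library, 3 counts in that library served as the floor. Interval coverage was checked on simulated counts that held counting error only, so the check does not bear on variation between animals, pools or amplifications. TMM factors came from edgeR 4.0.16.

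Every collagen is named, with a ratio from 10 reads in the higher library, and up to 4 measured genes of each other list, those with the interval farthest from 1. The members, classes and lists were chosen with earlier results of these data known. A check of protein sequence had been planned and is not analysed here.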

Additional observations from a re-analysis of the deposited data

How the results depend on the processing

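No replicate could be left out, and no paired analysis was possible because each genotype had 1 pooled library and the values come from no test. Of 115 summary values recomputed under alternative settings, 68 stayed, 47 moved and 0 of those whose interval excluded a ratio of 1 changed sign. A value stayed if it lay within its counting interval, or within 1.5 times for a count. For a median, the range from the median lower bound to the median upper bound of its genes was used, which is not a counting interval of the median. The summed log2 ratio of the transmembrane class, 0.28 with an interval that includes 0, changed sign to -0.27 with median-of-ratios scaling, -0.27 with TMM scaling and -0.05 without mitochondrially encoded entries. Of 116 values of single collagens, 71 stayed, 45 moved and 0 changed sign. The 3 other scalings lower every log2 ratio by a constant, 0.55 for median-of-ratios, 0.55 for TMM and 0.33 for totals without mitochondrially encoded entries, and they leave the order of genes and classes as it was. With median-of-ratios scaling the median log2 ratio was 2.74 for the measured collagens, 3.46 for fibrillar, 2.03 for basement membrane and 2.65 for beaded filament genes, and the log2 ratio of summed reads was 2.65 for all collagens, 3.57 for fibrillar, 2.05 for basement membrane, 2.59 for FACIT, 2.50 for beaded filament, 2.42 for multiplexin and 3.37 for hexagonal network genes. With TMM scaling the medians were 2.74, 3.47, 2.03 and 2.66 in the same order, and the summed log2 ratios 2.65, 3.57, 2.05, 2.60, 2.50, 2.43 and 3.37. Without mitochondrially encoded entries the medians were 2.24 for basement membrane and 2.87 for beaded filament genes, the summed log2 ratios 2.86 for all collagens, 3.78 for fibrillar, 2.26 for basement membrane, 2.72 for beaded filament and 2.64 for multiplexin genes, and collagens made up 0.764% of MHC403 and 0.105% of WT reads. In each of these 3 scalings 19 of 20 collagens stayed at least 2-fold higher and 1 pathway gene, Timp4, was at least 2-fold lower. Of all measured entries, 10.9% were higher with median-of-ratios scaling, 10.9% with TMM scaling and 15.2% without mitochondrially encoded entries. The shares at least 2-fold lower were 7.59%, 7.55% and 4.51% in the same order. Genes of collagen synthesis and folding at least 2-fold higher numbered 5 of 16 with median-of-ratios scaling and 5 of 16 with TMM scaling. With a minimum of 200 reads they numbered 5 of 9, beside 5 of 8 fibril-associated genes and 24.7% of all 3998 entries. A minimum of 20 reads gave 22 of 24 collagens at least 2-fold higher, beside 27.5% of all 12325 entries. The basement membrane median log2 ratio was then 1.95, since Col4a4 entered. A minimum of 50 reads in WT, added after seeing the data, gave 11 of 11 collagens, beside 16.4% of all 7630 entries. With the whole interval required to pass 2-fold, 20 of 20 collagens passed, beside 12.6% of all measured entries. Without Col1a1 and Col3a1, the shares of collagen reads in MHC403 were 23.9% fibrillar, 48.7% basement membrane, 1.90% FACIT and 18.1% beaded filament, and in WT 14.1% fibrillar, 61.2% basement membrane and 16.6% beaded filament. Depth limits the 22 collagens under 50 reads and the classes that hold no other genes.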
